A study of Homo sapiens with 8 samples.

Results

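ZBTB14, a gene on the minus strand of human chromosome 18, was described through its isoforms. The members were the 8 transcripts that the deposited tables list under ENSG00000198081, out of 206601 transcripts of 58735 genes. The gene was chosen by the expected counts themselves, because its isoform ENST00000614697 was listed at 0 in both formaldehyde input libraries and was present in every other group. Any comparison that includes the formaldehyde input is therefore given as a description, with no test.

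BEAS-2B, an established line of human bronchial epithelial cells, was exposed at an air–liquid interface to clean air or to 1 ppm formaldehyde for 2 h and was left to recover for 6 h. RNA depleted of ribosomal RNA was sequenced as such (input) and following pull-down by an antibody that recognizes 8-oxoG, an oxidized form of guanine. This gave 4 groups of 2 libraries. Clean air input (CA_IN) and clean air immunoprecipitated RNA (CA_IP) came from cells exposed to 0 ppm. Formaldehyde input (FA_IN) and formaldehyde immunoprecipitated RNA (FA_IP) came from cells exposed to 1 ppm. All cells were of the same line, and the study describes the 2 libraries of a group as biological duplicates. By its methods the input and the immunoprecipitated RNA of a treatment were split from one pool. Replicates are numbered 1 and 2 in the order of deposit. The study's own numbers, 1 and 3, run in the same order in each group, although no source says what a number marks. The sources name 2 different clones of the antibody, so the clone is not certain.

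Total expected counts ran from 26152651 to 45144392 over the input libraries and from 16883500 to 23658012 over the immunoprecipitated ones. An expected count is RSEM's estimate, in which a read shared by several isoforms is divided among them. All 8 epithelial markers checked, among them KRT7, KRT18, CDH1 and EPCAM, were present at 8.82 TPM (the length-corrected abundance that RSEM gives) or more in every library, with sums of 1268 to 1636 TPM in the input and 2901 to 3879 TPM in the immunoprecipitated libraries. Of 8 markers of blood, endothelial and liver cells, 7 stayed under 1 TPM in every library. HBB was at 0 throughout, and the exception was CD68 at up to 3.84 TPM. TPM compares genes within a library, and the levels of the 2 fractions are not set against each other on it.

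ZBTB14 encodes a transcription factor with a BTB domain, through which such proteins pair with each other and with corepressors, and a set of zinc fingers that bind GC-rich DNA. It was first described, under the name ZF5, as a repressor that binds the MYC promoter. It has also been described at stalled replication forks, where it is needed for loading of the ATR kinase on DNA covered by the single-strand binding complex RPA. Genes of this kind often have several first exons ahead of a shared coding region, so that isoforms differ in their start and 5′ leader but not in their protein.

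The gene spans chr18:5289019-5297053 (GRCh38), read from high to low coordinates. The 8 isoforms fell into 4 sets by their start. ENST00000614697 and the incomplete ENST00000582135 begin at the distal start, 5297053. ENST00000400143 and ENST00000357006 begin at the middle starts, 5296195 and 5296040. ENST00000615385 and the incomplete ENST00000582388 begin at the proximal start, 5295702. ENST00000578327 and the retained-intron transcript ENST00000585253 begin further inside the gene. The 4 complete isoforms hold the same coding length, 1347 bases, so the choice among them does not alter the length of the encoded protein.

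ENST00000614697 (3341 bases) and ENST00000615385 (3350 bases) have 3299 exonic bases in common and differ in the first exon. That exon covers 42 bases in the former (chr18:5297012-5297053) and 51 bases in the latter (chr18:5295652-5295702), with start sites 1351 bases apart. Of the 3267 windows of 75 bases in ENST00000614697, 40 are absent from ENST00000615385. Of the 3276 windows in ENST00000615385, 49 are absent from ENST00000614697. A single read of 75 bases could tell the 2 isoforms apart only in those windows. By the study's supplement the reads were paired, so either read of a pair could fall in such a window. Guanine, the base that 8-oxoG comes from, makes up 21.6% of ENST00000614697 and 21.9% of ENST00000615385.

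The junctions between the first and the following exon show where the isoforms part. The 30 bases across each junction, read from the GENCODE 44 transcripts, have the last 15 bases of the first exon in capitals and the first 15 of the next exon in lower case.
ENST00000614697: GCCTCCTGCATCTCGgatatgggtctgcag
ENST00000615385: CAGCGGCGCGGCGCGgatatgggtctgcag
ENST00000357006: TGTGCCAGGCTGCAGgatatgggtctgcag
ENST00000400143: TGTGCCAGGCTGCAGgtctggcgtgctcct
ENST00000614697, ENST00000615385 and ENST00000357006 enter the same exon from different first exons. ENST00000400143 leaves its first exon at the same splice donor as ENST00000357006 and skips to the following exon. Its first exon is longer (383 against 228 bases), and 155 bases of the isoform lie in no other.

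**Figure D1:**
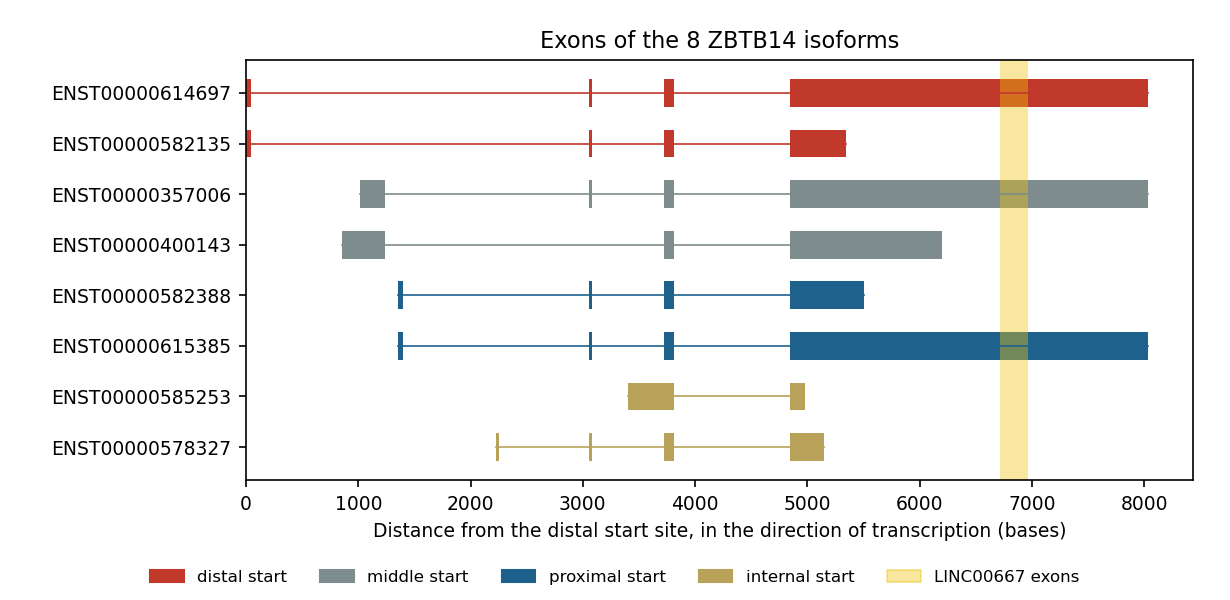
Exons (boxes) and introns (lines) of the 8 ZBTB14 isoforms, drawn by distance in bases from the distal start site in the direction of transcription and coloured by start. The last exons overlap, while the first exons of the distal, middle and proximal isoforms lie apart, and the shaded band is where the counted LINC00667 transcript ENST00000580082 lies on the opposite strand, inside the 3 long last exons.

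The sequence before the starts also differed. RefSeq (GRCh38.p14) gives 3 windows of 300 bases for ZBTB14, from 250 bases before a start to 50 after it. The window at the distal start (5297053) held 13 CpG dinucleotides and 43.0% G and C. The windows at 5296020 and 5295726, near the middle and proximal starts, held 41 and 32 CpG and 72.7% and 72.3% G and C. Over all 35116 windows of this length the median was 14 CpG, so the distal window lay near the median and the other windows above it.

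The 250 bases before the distal start and the 86 bases between the first exon of the middle isoforms and the start at 5295726 are shown for this contrast, on the minus strand, with CpG in capitals.
Distal, chr18:5297054-5297303: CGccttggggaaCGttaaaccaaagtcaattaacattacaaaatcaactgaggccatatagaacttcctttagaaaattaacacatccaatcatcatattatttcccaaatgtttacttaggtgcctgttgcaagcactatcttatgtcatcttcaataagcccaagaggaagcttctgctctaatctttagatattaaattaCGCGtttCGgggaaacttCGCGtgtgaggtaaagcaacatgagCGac
Proximal, chr18:5295727-5295812: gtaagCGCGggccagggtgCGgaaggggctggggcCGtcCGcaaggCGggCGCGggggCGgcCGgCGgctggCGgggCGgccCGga
The printed distal stretch holds 8 CpG and the shorter proximal stretch 14. The motif GCGCGC, which reads the same on both strands and was searched with overlapping matches counted, occurred 5 times in the window at 5296020 and not in the other windows. It was present in 18.8% of all windows. A match is a description of letters, not a binding site.

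Almost all counts of the gene came from a few isoforms. ENST00000614697 held 197 and 259 expected counts in CA_IN against 0 and 0 in FA_IN, then 225 and 158 in CA_IP against 103 and 127 in FA_IP. These are the values on which the gene was chosen. ENST00000615385 held 171 and 0 in CA_IN against 173 and 194 in FA_IN, then 0 and 0 in CA_IP against 0 and 0 in FA_IP. The proximal isoform was thus counted in the libraries in which the distal isoform was at 0, and in 1 other, CA_IN replicate 1, where both were counted.

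Stated as shares of the gene's counts, ENST00000614697 made up 36.1% and 74.6% of CA_IN, while it reached 68.7% and 70.7% of CA_IP and 51.1% and 68.6% of FA_IP. ENST00000615385 made up 78.0% and 80.2% in FA_IN, and 31.3% in CA_IN replicate 1. The 95% Wilson intervals on these shares, which cover counting error only, ran from 72.02% to 82.9% and from 74.7% to 84.7% for ENST00000615385 in the FA_IN libraries. In CA_IN they ran from 32.2% to 40.2% and from 69.6% to 78.7% for ENST00000614697. The 2 clean air inputs were further apart than counting error, and neither interval covers the division of reads among isoforms.

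An estimate of 0 was limited by the counts of the gene. The limit was taken as 3 counts in percent of the gene's counts, which is not the Wilson limit. In FA_IN, 0 of 222 and 0 of 242 counts allowed ENST00000614697 a share of up to 1.35% and 1.24%. In CA_IP, 0 of 327 and 0 of 223 counts allowed ENST00000615385 up to 0.917% and 1.35%, and in FA_IP, 0 of 202 and 0 of 185 allowed up to 1.49% and 1.62%. These limits take each count as observed, whereas RSEM may put shared reads wholly on one of 2 near-identical isoforms.

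**Figure D2:**
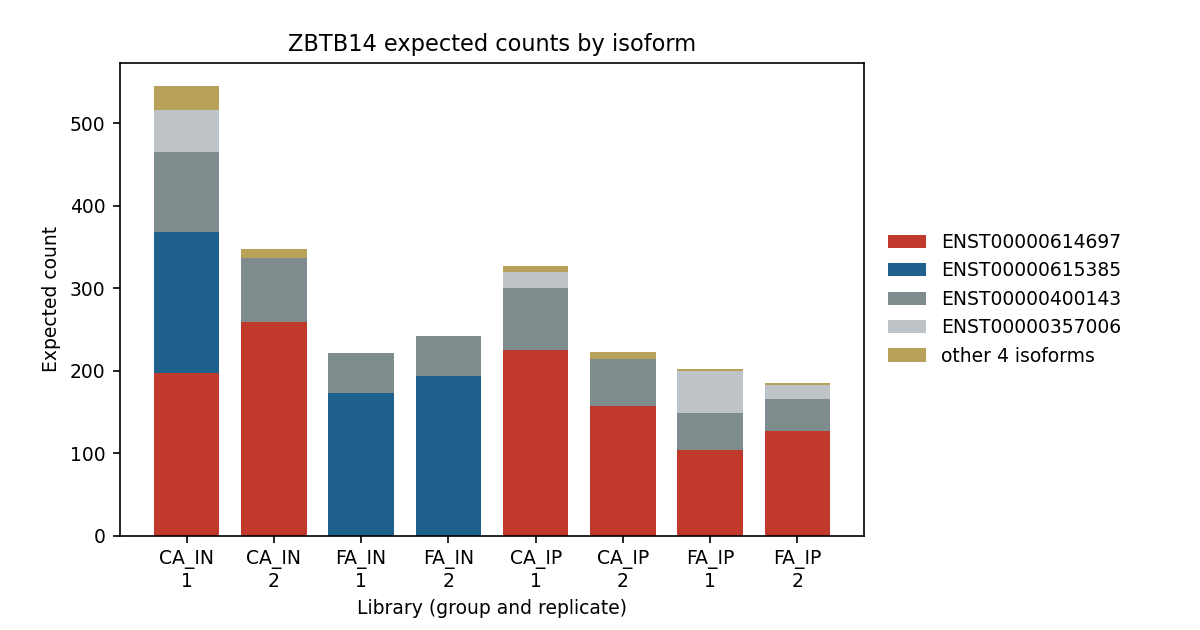
Expected counts of ZBTB14 in each of the 8 libraries (bars), divided by isoform. The blue part, ENST00000615385, is present in both FA_IN libraries and in CA_IN replicate 1, and the red part, ENST00000614697, in the 6 libraries other than FA_IN.

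Against a floor of 3 counts in each library, the estimated mean level of ENST00000614697 was at least 56.6-fold lower in FA_IN than in CA_IN. It was at least 58.3-fold higher in FA_IP than in FA_IN. Like the limits above, these bounds take each count as observed and do not cover RSEM's division of shared reads between near-identical isoforms. Leaving out one library at a time gave bounds of 44.4 to 68.8 and of 50.02 to 69.96. ENST00000615385 was at least 39.2-fold higher in FA_IN than in FA_IP (33.6 to 47.0). Its bound of 13.1-fold in CA_IN over CA_IP rested on 1 library. Without CA_IN replicate 1 both groups were at 0 and there was no fold, and without CA_IN replicate 2 the bound was 26.3. None of the 4 folds was tested, as 3 of them hold FA_IN, the group whose values chose the gene, and the other rests on 1 library.

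The 2 isoforms together varied far less than either. Their summed level, in CPM (counts scaled to the total of the library), was 8.15 and 6.76 in CA_IN against 6.62 and 5.31 in FA_IN, then 10.2 and 7.97 in CA_IP against 6.11 and 5.37 in FA_IP. As group means this was 7.46 ± 0.979, 5.96 ± 0.927, 9.09 ± 1.60 and 5.74 ± 0.524 CPM (SD, n = 2 each). Both FA_IN libraries lay below both CA_IN libraries and both FA_IP below both CA_IP, by margins that are small beside the folds of the single isoforms. The pair held 67.4% and 74.6% of the gene's counts in CA_IN and 78.0% and 80.2% in FA_IN. In CA_IP it held 68.7% and 70.7%, and in FA_IP 51.1% and 68.6%.

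**Figure D3:**
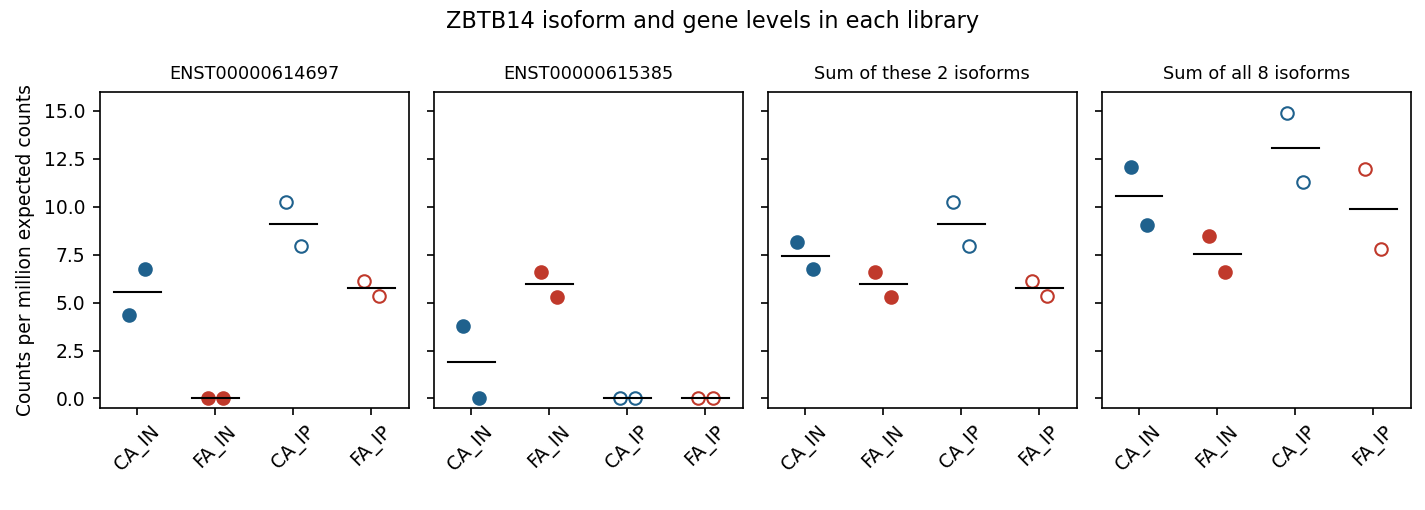
Level of ENST00000614697, of ENST00000615385, of their sum and of the whole gene, in CPM, with 1 point for each library and a line at the mean of each group (blue, clean air; red, formaldehyde; filled, input; open, immunoprecipitated). The single isoforms fall to 0 in some groups, while their sum stays between 5.31 and 10.2 and the gene between 6.62 and 14.9 CPM.

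The middle-start isoforms differed from each other. ENST00000400143, the only isoform with a shorter last exon and a complete coding region, was counted in every library. It held 97.6 and 77.3 counts in CA_IN against 47.9 and 47.9 in FA_IN, then 75.6 and 56.9 in CA_IP against 44.9 and 38.3 in FA_IP. Its share stayed between 17.9% and 25.5%. In 226 of its 1740 windows of 75 bases it differs from all other isoforms, which is more than any other complete isoform has. ENST00000357006 was counted in 4 of the 8 libraries, with 50.8 in CA_IN replicate 1, 19.0 in CA_IP replicate 1, and 51.4 and 17.7 in FA_IP. In both FA_IN libraries it was at 0 as well.

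The incomplete isoforms and the retained-intron transcript added few counts. As they are short, their shares per effective length were larger, with ENST00000582388 at 15.2% in CA_IN replicate 1. In CA_IN replicate 2 ENST00000585253 was at 13.4% and ENST00000578327 at 10.1% on that scale. ENST00000582388, with the proximal first exon, had 23.4 counts in CA_IN replicate 1, 7.57 in CA_IP replicate 2 and 0 elsewhere. ENST00000582135, with the distal first exon, was at 0 in all 8 libraries. ENST00000585253 had at most 7.24 counts and ENST00000578327 at most 3.93. By start, the distal set and the proximal set were both counted in CA_IN replicate 1, at 36.1% and 35.6%, and in CA_IP replicate 2, at 70.7% and 3.39%. In each other library 1 of these 2 sets was at 0.

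Summed over isoforms, ZBTB14 was present in every library. The gene held 546 and 348 expected counts in CA_IN against 222 and 242 in FA_IN, then 327 and 223 in CA_IP against 202 and 185 in FA_IP. In the same order this was 12.1 and 9.07, 8.49 and 6.62, 14.9 and 11.3, and 11.96 and 7.82 CPM. FA_IN had the lowest mean and lay below both CA_IN libraries, but its range overlapped that of FA_IP, and the ranges of CA_IN, CA_IP and FA_IP overlapped one another.

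In edgeR's quasi-likelihood fit of 18242 genes, the ZBTB14 sum did not pass the test between CA_IP and CA_IN. The log2 fold change was 0.16 ± 0.24 (SE), with a 95% interval from -0.40 to 0.71 and a Benjamini-Hochberg adjusted p of 0.872 (n = 2 against 2). Its direction turned without CA_IN replicate 2 (-0.042) and without CA_IP replicate 1 (-0.037), fits that leave the groups with unlike replicate numbers. Within each replicate number CA_IP lay above CA_IN, at 3.80 against 3.66 and 3.44 against 3.26 (TMM-normalized log2 CPM). In that comparison 349 genes, 1.91% of those tested, had an adjusted p under 0.05, 27 higher and 322 lower in CA_IP. With the replicate number as a block, 1941 genes (10.6%) were called, and with the RNA pool as a block, a fit added after the data were seen, 3179 (17.4%). The RNA pool was taken as the libraries of a treatment with the same replicate number, a pairing that rests on the number alone. Under library size in place of TMM the median of all genes moved by 0.15 on the log2 scale, and 821 genes were higher and 336 lower.

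Between FA_IP and CA_IP the ZBTB14 sum had a log2 fold change of -0.40 ± 0.25 (SE), a 95% interval from -0.96 to 0.17 and an adjusted p of 0.907 in edgeR. Leaving out single libraries gave -0.69 (without FA_IP replicate 1) to -0.11 (without FA_IP replicate 2). A missed threshold does not show that the levels were alike. In this comparison edgeR called 0 genes (0% of 18242) at an adjusted p under 0.05, with 871 genes (4.77%) at an unadjusted p under 0.05, and DESeq2 called 4. With the replicate block edgeR called 379 (2.08%), and the ZBTB14 sum was not among them.

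The other contrasts hold FA_IN and are given without a test. The fitted log2 fold change of the gene sum was -0.45 ± 0.24 (SE) for FA_IN against CA_IN and ran from -0.67 to -0.23 when single libraries were left out. For FA_IP against FA_IN it was 0.21 ± 0.25, and -0.090 without FA_IP replicate 1, which leaves unlike replicate numbers. Within each replicate number FA_IP lay above FA_IN, at 3.49 against 3.22 and 2.94 against 2.82 (TMM-normalized log2 CPM). The difference in enrichment between formaldehyde and clean air was 0.051 ± 0.35. It was below 0 without CA_IN replicate 1 (-0.16), FA_IN replicate 2 (-0.098), CA_IP replicate 2 (-0.12) or FA_IP replicate 1 (-0.25).

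Over all genes, these 3 contrasts gave 1.5%, 0.00548% and 0% called by edgeR for FA_IP against FA_IN, FA_IN against CA_IN, and the difference in enrichment. With the replicate block the first and second of these shares were 5.22% and 1.41%. The 1 gene called between the inputs was BIVM-ERCC5, a readthrough of 2 neighbouring genes that shares exons with both, with 204 and 130 rounded counts in CA_IN and 2 and 0 in FA_IN. Leaving out one library gave 0 calls between the inputs in 5 of the 8 fits, as did the fit of the 4 input libraries alone. BIVM-ERCC5 was chosen for mention after its values were seen, and its count is uncertain for the same reason as that of the ZBTB14 isoforms. For the difference in enrichment 195 genes had an unadjusted p under 0.05 and DESeq2 called 3.

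Single isoforms were tested between CA_IP and CA_IN, the comparison without formaldehyde. The presence of ENST00000614697 in both groups was part of the choice of the gene, so its fold change is a description with no test. In the edgeR fit of 67873 transcripts, 164 (0.242%) were called, and ENST00000400143 and ENST00000357006 were not among them. The number called was 0 to 39 with any 1 library left out and 1338 in DESeq2. Of the 8 isoforms, 4 passed the filter on low counts. ENST00000614697 had a log2 fold change of 0.53 ± 0.30 (SE). ENST00000400143 had 0.42 ± 0.34 and an adjusted p of 0.929. ENST00000615385 had counts in 1 of the 4 libraries compared and passed the filter only through FA_IN, so it was given no test. For ENST00000357006 the adjusted p was 1, with counts in 2 of the 4. The variation between replicates was larger for transcripts (common dispersion 0.303) than for gene sums (0.0190).

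LINC00667, a long noncoding RNA of the plus strand, overlaps the last exon of ZBTB14. Among its transcripts in the deposited tables only ENST00000580082 does so, across from 253 bases (chr18:5290086-5290338) of ENST00000614697, ENST00000615385 and ENST00000357006 and from none of ENST00000400143. As the study's processing names no strand setting, reads of the 2 genes in this stretch cannot be told apart. ENST00000580082 held 25.9 and 23.2 expected counts in CA_IN against 1.98 and 0 in FA_IN, then 7.85 and 16.4 in CA_IP against 11.8 and 0 in FA_IP. Like ENST00000614697 it was lower in both FA_IN libraries than in both CA_IN libraries, but it was also at 0 in FA_IP replicate 2. The gene sum of LINC00667 held 612 and 377 expected counts in CA_IN against 316 and 470 in FA_IN, then 311 and 228 in CA_IP against 280 and 290 in FA_IP. Its edgeR log2 fold change was -0.013 ± 0.20 for CA_IP against CA_IN and 0.18 ± 0.20 for FA_IP against CA_IP, with adjusted p of 0.989 and 0.925. Of the nearest genes on either side, ENSG00000265188 had 2.82 and 2.19 counts in CA_IN, 0 and 0 in FA_IN and at most 3.13 elsewhere, near the floor of 3 counts, and ENSG00000264254 had at most 1.

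The emptiness of one isoform in one group was not particular to ZBTB14 or to FA_IN. Among transcripts with 10 or more rounded counts in all 6 other libraries, 23 of 37075 (0.062%) were at 0 in both FA_IN libraries. The same pattern was found for 20 of 36411 (0.0549%) in CA_IN, for 68 of 38129 (0.178%) in CA_IP and for 65 of 39127 (0.166%) in FA_IP. The immunoprecipitated groups, which were sequenced less deeply, had more such transcripts, and the part of depth in this was not tested.

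**Figure D4:**
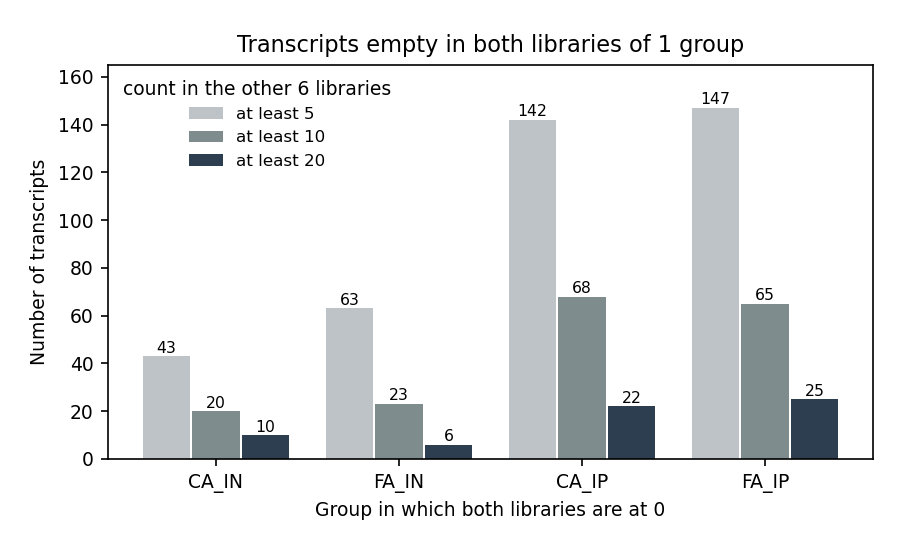
Number of transcripts at 0 (rounded) in both libraries of the group on the x axis and at or above a minimum count of 5, 10 or 20 in each of the other 6 libraries. At a minimum of 10, ENST00000614697 is 1 of 23 transcripts in FA_IN, and every group has 20 or more.

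By mean count in the other libraries, ENST00000614697 was the second of the 23, at 178. The first was ENST00000555309 of HNRNPC, which encodes an RNA-binding protein of nuclear transcripts, at 252. ENST00000648527 of the kinase gene MAP3K14 (103), ENST00000405547 of SNED1 (73.9) and ENST00000473257 of the actin gene ACTB (63.4) followed. Most of the gene sums changed little. A sum can stay level where the empty isoform is a small part of its gene, and that part was not compared. On the log2 scale of group mean CPM, FA_IN over CA_IN, the 23 genes had a median of -0.11, and 22 lay within 0.5 of zero. Over all genes the median was -0.022, with 16311 of 18216 within 0.5. ZBTB14 itself was at -0.49, below the lower quartile of the 23 (-0.24). HNRNPC, with 33 isoforms, was at 0.026 and ACTB, with 19, at 0.11. These are descriptions, as the 23 were picked by their FA_IN counts.

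Among the genes of the BTB zinc finger family ZBTB14 was expressed at a middle level. In TPM, which allows for length, it was at 1.65 and 2.12 in CA_IN and at 0.96 and 1.17 in FA_IN. In CA_IP it was at 3.12 and 4.42 and in FA_IP at 2.00 and 2.85. Of 49 family members it ranked 20 by mean TPM in CA_IN, CA_IP and FA_IP and 28 in FA_IN. In CA_IN its neighbours in that order were ZBTB41 (1.77 and 2.30 TPM) and ZBTB10 (1.69 and 1.73 TPM), whose values overlap those of ZBTB14. In FA_IN they were ZBTB39 (0.87 and 1.26 TPM) and ZBTB5 (1.00 and 1.08 TPM), again within the spread. A ZBTB14 TPM is also moved by the isoform to which its reads are given, because the isoforms differ in length.

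The highest family member in every group was ZBTB38, a reader of methylated DNA, with means between 22.0 and 41.6 TPM. Of the members named by rule, ZBTB1 had means of 3.72 to 8.81 TPM over the 4 groups and ZBTB17, the MYC partner Miz-1, of 2.63 to 6.77 TPM. ZBTB33, the methyl-CpG binder Kaiso, had means of 2.39 to 5.71 TPM, ZBTB2 of 1.98 to 5.64 TPM and ZBTB16 of 2.13 to 4.77 TPM. BCL6, a repressor of B-cell differentiation genes, had means of 1.69 to 4.39 TPM and ZBTB7A of 1.08 to 3.32 TPM.

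In all, 46 of the 48 other family members passed the filter, and edgeR called 0 of the 46 in each of the 5 contrasts. At an unadjusted p under 0.05 there were 1 in CA_IP against CA_IN, 0 in FA_IP against FA_IN, 1 in FA_IN against CA_IN, 5 in FA_IP against CA_IP and 0 in the difference. Over all genes these shares were 12.6%, 9.1%, 3.35%, 4.77% and 1.07%. DESeq2 also called 0.

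The number of family calls depended on the block. With the replicate block 3 of the 46 were called, all lower in formaldehyde, in both the input and the immunoprecipitated RNA. They were ZBTB2, ZBTB24 and HIC2. The same block called 1.41% and 2.08% of all genes in these comparisons, whose fractions came from the same RNA pools. Between the fractions in clean air it called ZBTB48 alone. With the RNA pool as a block 6 were called in clean air and 1, ZBTB48, in formaldehyde, against 17.4% and 10.1% of all genes. The names were chosen after their values were seen.

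The median log2 fold change of the family was -0.20 in FA_IN against CA_IN, with 35 members below 0 and 11 above, beside a median of 0.019 over all genes. In FA_IP against CA_IP it was -0.21, with 38 below and 8 above, beside -0.0054. Both medians moved with single clean air libraries. Without CA_IN replicate 1 the first was -0.049 and without CA_IN replicate 2 -0.33. Without CA_IP replicate 1 the second was -0.0058 and without CA_IP replicate 2 -0.42. Each of these fits left the compared groups with unlike replicate numbers. The contrasts of formaldehyde with clean air share no library. By the study's methods, however, the input and immunoprecipitated RNA of a treatment were split from the same pool. Between the fractions the family medians were 0.025 and 0.011, against 0.016 and 0.0035 over all genes.

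ZBTB2 was among the members with lower fitted values in formaldehyde, at -0.52 ± 0.20 in the input and -0.46 ± 0.20 after immunoprecipitation, with edgeR adjusted p of 0.945 and 0.907. ZBTB7A was at -0.31 ± 0.20 and -0.53 ± 0.20 with the same adjusted values. ZBTB16 was at 0.27 ± 0.20 and 0.12 ± 0.21, with adjusted p of 0.945 and 0.949. Without a block none of these passed the test. With the replicate block ZBTB2 was at -0.51 ± 0.090 and -0.46 ± 0.095, with adjusted p of 0.0203 and 0.0285, and ZBTB7A and ZBTB16 did not pass.

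**Figure D5:**
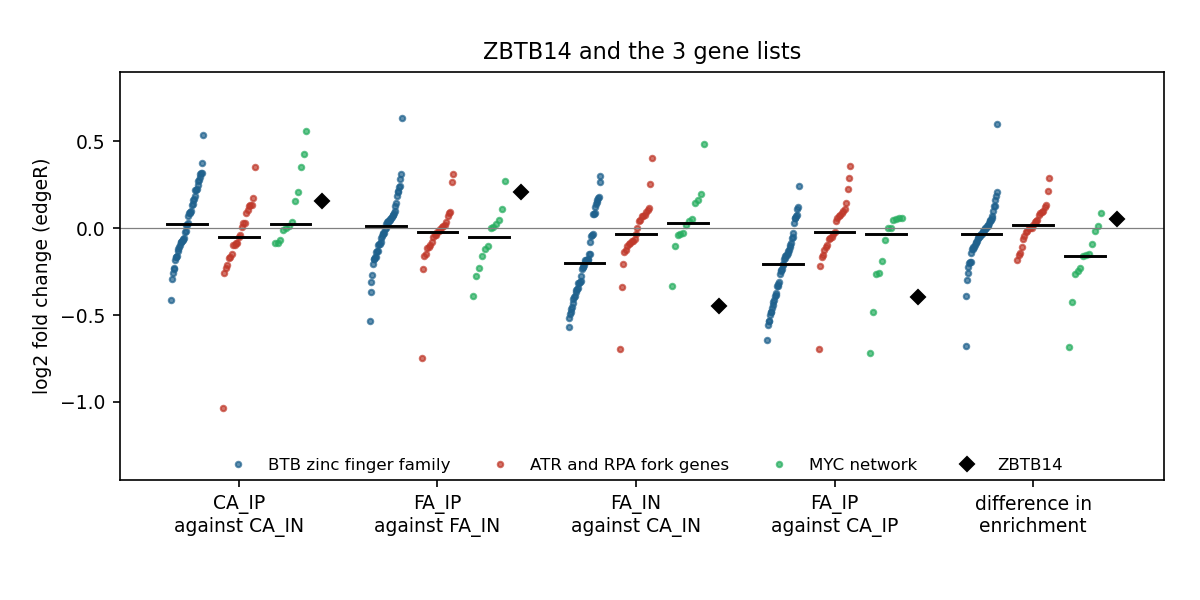
Fitted log2 fold changes (edgeR) of the tested members of 3 gene lists in 5 contrasts, with a line at each list's median and a diamond for ZBTB14. The BTB zinc finger family has medians of -0.20 and -0.21 in the 2 comparisons of formaldehyde with clean air, which were -0.049 without CA_IN replicate 1 and -0.0058 without CA_IP replicate 1, and RPA3 is the lowest point of the fork genes in both comparisons of fractions.

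Of the 23 genes of the ATR and RPA pathway, all were tested and 1 was called, RPA3, the smallest subunit of the RPA complex. This call was made in both comparisons of fractions, in which 1.91% and 1.5% of all genes were called. RPA3 was at 68.6 and 66.4 CPM in CA_IN against 69.1 and 68.8 in FA_IN, then 35.4 and 37.4 in CA_IP against 48.2 and 44.3 in FA_IP. All 4 immunoprecipitated libraries lay below all 4 input libraries. RPA3 fell by 1.04 ± 0.092 (log2, SE) in CA_IP against CA_IN and by 0.75 ± 0.092 in FA_IP against FA_IN, with edgeR adjusted p of 0.000479 and 0.00357. The second call was lost without FA_IN replicate 1 (adjusted p = 0.0572) and without FA_IP replicate 2 (adjusted p = 0.0700). The difference between the 2 falls did not pass the test (0.29 ± 0.13, adjusted p = 1.00).

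The other RPA subunits did not move in this way. RPA1 was at 0.031 ± 0.12 and RPA2 at 0.10 ± 0.082 in CA_IP against CA_IN, with adjusted p of 0.958 and 0.697. The kinase ATR was at -0.17 ± 0.12 and its partner ATRIP at 0.17 ± 0.23, with adjusted p of 0.668 and 0.841. TOPBP1, an activator of ATR, and CHEK1, its target kinase, were at -0.099 ± 0.091 and -0.038 ± 0.088, with adjusted p of 0.751 and 0.927. Between formaldehyde and clean air edgeR called 0 of the 23 in either fraction, with 1 in the input and 2 in the immunoprecipitated RNA at an unadjusted p under 0.05, and DESeq2 called 0. Over all genes 3.35% and 4.77% were under that limit. The medians were -0.036 and -0.023.

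With the replicate block CDC25A, a phosphatase that drives the cell cycle and is degraded when CHEK1 is active, was called in both comparisons of formaldehyde with clean air. It was at -0.69 ± 0.077 in the input and -0.68 ± 0.080 after immunoprecipitation, with adjusted p of 0.00462 and 0.00470. RPA3 was also called, higher in FA_IP than in CA_IP, at 0.36 ± 0.083 with an adjusted p of 0.0421. Of all genes, the replicate block called 1.41% in the input and 2.08% after immunoprecipitation. Both fractions came from the same RNA pools, so a call in each is not a separate repeat. With the RNA pool as a block RPA3 was called between the fractions in both treatments. HLTF and RAD9A were called with it in clean air and ATRIP in formaldehyde (0.27 ± 0.082, adjusted p = 0.0363). Of all genes, the pool block called 17.4% in clean air and 10.1% in formaldehyde. CDC25A, HLTF and RAD9A were named after their values were seen.

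Of the 13 genes of the MYC network, 12 were tested, and without a block edgeR and DESeq2 called 0 in all 5 contrasts. MYC itself was at 75.5 and 79.6 CPM in CA_IN against 59.3 and 60.4 in FA_IN, then 96.7 and 94.9 in CA_IP against 66.8 and 68.6 in FA_IP. The formaldehyde libraries were below the clean air libraries in both fractions, and the log2 fold changes were -0.33 ± 0.085 and -0.48 ± 0.086, with edgeR adjusted p of 0.945 and 0.907 (unadjusted p = 0.00369 and 0.000367). With the replicate block MYC passed in both fractions, at -0.33 ± 0.072 and -0.48 ± 0.074, with adjusted p of 0.0414 and 0.00692. That block called 1.41% and 2.08% of all genes in these comparisons. As the fractions came from the same RNA pools, passing in both is not a separate repeat. MAX, the partner with which MYC binds DNA, was at -0.10 ± 0.12 and -0.26 ± 0.12, and MNT, a repressor that competes for MAX, at 0.20 ± 0.22 and -0.065 ± 0.23. Their adjusted p were 0.945 for both in the input and 0.907 and 0.978 after immunoprecipitation. At an unadjusted p under 0.05 the network had 1 gene in each of CA_IP against CA_IN and FA_IN against CA_IN, 2 in FA_IP against CA_IP, and 0 in the others, beside the shares of all genes given for the family. Between the fractions MXD4, which competes with MYC for MAX, was called in clean air under either block. In formaldehyde it was called under that of the RNA pool, which also called MXD3 in clean air. Of all genes, the replicate block called 10.6% in clean air. The pool block called 17.4% in clean air and 10.1% in formaldehyde. MXD4 and MXD3, too, were named after their values were seen.

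Across the 8 libraries, the genes whose TMM-normalized log2 CPM was most like the ZBTB14 sum were WDR91 (Pearson r = 0.993), FZD1 (0.992) and CDR2 (0.991), out of 18241 compared. WDR91 takes part in endosome maturation and FZD1 is a receptor for Wnt ligands. The likeness is a description over 8 libraries that share depth, fraction and treatment, and 617 genes had r above 0.9. In all 4 groups replicate 1 was above replicate 2 for ZBTB14 and for each of these 3 genes.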

How the data were processed

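RNA of BEAS-2B cells was sequenced in 8 libraries, 4 of input and 4 of 8-oxoG immunoprecipitated RNA. The authors aligned the reads with STAR 2.6.0a and deposited RSEM 1.2.25 expected counts, effective lengths and TPM of each Ensembl transcript (GRCh38), with replicates not pooled and no strand option named. Their 3 tables of DESeq2 comparisons hold fold changes and p-values and were not used.

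Expected counts were summed by gene and rounded for the tests, and features with at least 10 rounded counts in at least 2 of 8 libraries were kept. All 8 libraries entered 1 model with 4 group means in edgeR 4.0.16 (TMM, quasi-likelihood, prior count 0.125; limma 3.58.1, R 4.3.3), with Benjamini-Hochberg adjustment over all features and a limit of 0.05. By the study's methods the 2 libraries of a group are biological duplicates. Its replicate numbers follow the order of deposit, and same-numbered libraries deviated together in all 6 pairs of groups (r = 0.203 to 0.380, across genes). This number was fitted as a replicate block. Another block, named the RNA pool, joined the libraries of a treatment with the same number, a pairing taken from the number alone. The values of both blocks stand beside each result they change. DESeq2 1.42.0 was an alternative. Only the gene-level edgeR fit of CA_IP against CA_IN was tried on simulated counts, with a single dispersion and no replicate effect. PCR copies were not marked by molecular identifiers, so Wilson intervals and floors (3 counts per library) cover counting error only.

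ZBTB14, the 3 gene lists, the markers and the tests were chosen with earlier results of these data known. Named were all ZBTB14 isoforms, neighbouring genes, 17 preset list members, called members of a list (at most 5 in each comparison), the 3 genes most like ZBTB14, and the 5 highest transcripts empty in FA_IN. Exons came from GENCODE 44, in which all 8 isoforms have the deposited length. It lists 1 further ZBTB14 isoform. Promoter windows came from RefSeq. Tables were read with Python 3.11.15.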

Additional observations from a re-analysis of the deposited data

How the results depend on the processing

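The adjusted p of the ZBTB14 sum stayed above 0.05 in all 16 settings for CA_IP against CA_IN (0.340 to 0.981) and all 15 for FA_IP against CA_IP (0.104 to 1.00). Leaving out one library gave log2 fold changes of -0.042 to 0.37 and -0.69 to -0.11 for these, -0.090 to 0.49 for FA_IP against FA_IN, -0.67 to -0.23 for FA_IN against CA_IN, and -0.25 to 0.35 for the difference in enrichment. For ENST00000357006 in CA_IP against CA_IN it gave -7.09 to 6.39, values that depend on the prior count. Leaving out a library of a comparison leaves its groups with unlike replicate numbers.

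Counts of called genes moved more. Leaving out one library gave 194 to 318 genes in CA_IP against CA_IN (the lowest without CA_IP replicate 1, and 217 without CA_IN replicate 1) and 121 to 282 in FA_IP against FA_IN (the lowest without FA_IN replicate 1, then 146 and 161 without FA_IP replicates 1 and 2). It gave 0 to 1 in FA_IN against CA_IN, 0 to 4 in FA_IP against CA_IP, 0 to 5 for the difference, 0 to 1 fork gene (RPA3) in FA_IP against FA_IN, and 0 to 39 transcripts. Library size in place of TMM gave 1157 and 561 genes between the fractions in clean air and in formaldehyde (318 higher and 243 lower in the latter, against 6 and 268 with TMM), 1 gene of the MYC network (MXD4, clean air) and 103 transcripts. Without the filter there were 686 and 578 genes between the fractions, 100 in FA_IN against CA_IN with 1 fork gene (CDC25A), 158 in FA_IP against CA_IP with 1 gene of each list (ZBTB24, CDC25A and MYC), 52 for the difference, and 687 transcripts. DESeq2 gave 3 genes in FA_IN against CA_IN (BIVM-ERCC5, ENSG00000257524 and ENSG00000277067), 4 in FA_IP against CA_IP (RNVU1-7, ARHGAP19-SLIT1, ENSG00000280800 and ENSG00000285238), 3 for the difference (RNVU1-7, BIVM-ERCC5 and ENSG00000277067) and 1338 transcripts in CA_IP against CA_IN. With only the 4 libraries compared, edgeR gave 0 genes in FA_IN against CA_IN, with 663 at an unadjusted p under 0.05.

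With the replicate number as a replicate block there were 1941 and 953 genes between the fractions, 258 in FA_IN against CA_IN, 379 in FA_IP against CA_IP and the same 3 as DESeq2 for the difference. The block gave 1 family member (ZBTB48) and 1 MYC network gene (MXD4) in CA_IP against CA_IN. In FA_IN against CA_IN it gave 3 (ZBTB24, HIC2 and ZBTB2), 1 fork gene (CDC25A) and MYC, and in FA_IP against CA_IP the same 3, 2 fork genes (RPA3 and CDC25A) and 1 MYC network gene, MYC. With the RNA pool as a block, chosen after seeing the data, there were 3179 and 1835 genes between the fractions, 25 for the difference, and 6 and 1 family members, 3 and 2 fork genes, and 2 and 1 MYC network genes. The ZBTB14 sum was called in none of these. Names here were chosen after their values were seen, and the cause of these shifts was not tested.

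With a minimum of 5 or 20 counts in place of 10, transcripts empty in one group numbered 43 or 10 in CA_IN, 63 or 6 in FA_IN, 142 or 22 in CA_IP and 147 or 25 in FA_IP. Per effective length, the mean share of ENST00000614697 was 48.6% in CA_IP and 45.6% in FA_IP, and that of ENST00000615385 in FA_IN was 64.9%. Bounds without a library were added after the data were seen.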
